A study of Mus musculus with 6 samples.

Results

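The genes described are 10 genes of lipid uptake in capillary endothelium, Cd36, Gpihbp1, Fabp4, Fabp5, Rbp7, Lpl, Pparg, Aqp7, Meox2 and Thrsp, chosen by symbol from the 32285 genes counted in every library, and each symbol matched 1 row. They were measured by droplet single-cell RNA sequencing of tdTomato+ cells sorted from mouse back skin, in 6 libraries of 1 mouse each. The WT telogen libraries (2, resting hair follicles, postnatal day 20) and the WT anagen libraries (2, growing follicles, day 32) came from tdTomato;Cdh5-CreERT2;Krt14-H2BGFP mice of C57BL/6;CD1 background. The Alk1 KO libraries (2, telogen, day 25) came from Alk1 flox/flox;tdTomato;Cdh5-CreERT2 mice of C57BL/6 background. The KO samples also carry a genotype label of wild type and a treatment label of none, which go against their titles and descriptions, and they were grouped by title. All mice, the WT included, carried the tdTomato reporter and a tamoxifen-activated Cre driven by the VE-cadherin (Cdh5) promoter, and received tamoxifen at day 17. Deletion of Alk1 (gene symbol Acvrl1, an endothelial receptor for bone morphogenetic proteins) could thus take place in any cell in which that promoter was active. The KO and WT telogen mice differed in age, background strain, the H2BGFP allele, the mix of sexes and genotype together. The study also takes the KO data from an earlier dataset of its authors. These differences cannot be told apart. The WT sort kept tdTomato+ cells without GFP, and the KO genotype lists no H2BGFP allele. Perineurial, mural, fibroblast and immune cells were in the libraries beside endothelial cells (ECs). The study describes the immune cells and fibroblasts as Cdh5-negative contaminants.

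Fatty acids reach tissues mainly as triglycerides in lipoproteins. Lipoprotein lipase (LPL), made by parenchymal cells, is carried by GPIHBP1 to the capillary lumen, where it frees fatty acids, which CD36 takes up and the fatty acid-binding proteins FABP4 and FABP5 carry inside the cell. In capillary ECs of heart, muscle and fat these genes are known targets of the nuclear receptor PPARγ, which binds DNA as a dimer with an RXR receptor, and of the homeobox factor MEOX2 with its partner TCF15. In skin, follicle growth goes along with expansion of dermal fat, and BMP signalling through ALK1 keeps vessels quiescent.

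Promoters were listed in the RefSeq table of GRCm38.p6 for 6 of the 10 genes, with 9 start sites in all, and not for Fabp4, Fabp5, Gpihbp1 and Lpl. Those of 4 genes that were highest in Cap-Kdr capillary ECs are printed to show what stood before their starts, from 250 bases before to 50 bases after the start, read along the gene. Capitals mark the nuclear-receptor hexamer AGGTCA or its complement TGACCT.
Cd36: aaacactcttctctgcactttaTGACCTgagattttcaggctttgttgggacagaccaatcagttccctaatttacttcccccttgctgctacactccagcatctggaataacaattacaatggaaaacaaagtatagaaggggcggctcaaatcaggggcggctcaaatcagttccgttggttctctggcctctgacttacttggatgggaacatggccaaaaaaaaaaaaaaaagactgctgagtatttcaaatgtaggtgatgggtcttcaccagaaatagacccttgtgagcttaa
Rbp7: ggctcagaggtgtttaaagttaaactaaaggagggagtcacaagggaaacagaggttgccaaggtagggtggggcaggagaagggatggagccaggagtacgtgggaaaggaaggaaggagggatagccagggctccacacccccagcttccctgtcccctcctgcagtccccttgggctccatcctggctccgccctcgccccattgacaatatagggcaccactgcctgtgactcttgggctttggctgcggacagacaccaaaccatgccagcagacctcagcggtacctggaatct
Aqp7: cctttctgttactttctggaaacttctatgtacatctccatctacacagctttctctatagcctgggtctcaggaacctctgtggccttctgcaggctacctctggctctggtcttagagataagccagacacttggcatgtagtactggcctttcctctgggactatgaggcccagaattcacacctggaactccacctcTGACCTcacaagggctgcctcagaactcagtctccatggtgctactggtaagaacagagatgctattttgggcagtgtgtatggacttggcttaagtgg
Thrsp: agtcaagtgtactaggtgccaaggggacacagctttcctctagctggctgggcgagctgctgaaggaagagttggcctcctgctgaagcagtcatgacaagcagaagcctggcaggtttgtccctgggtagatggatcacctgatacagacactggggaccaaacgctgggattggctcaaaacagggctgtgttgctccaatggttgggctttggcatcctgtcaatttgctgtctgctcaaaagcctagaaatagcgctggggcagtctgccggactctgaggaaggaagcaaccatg
Their positions in GRCm38.p6 were chr5:17835847-17836146, minus strand for Cd36, chr4:149454919-149455218, minus strand for Rbp7, chr4:41048087-41048386, minus strand for the first listed start of Aqp7 and chr7:97417501-97417800, minus strand for Thrsp. The hexamer, searched on both strands, began 228 bases before the start in Cd36 and 49 before that start of Aqp7. It was at 28 and 9 bases before the first and second listed starts of Pparg. For the second start of Aqp7, whose window overlaps the first, it was at 223 and 101 bases. The match at 223 is the same letters as that at 49 before the first start. The printed windows of Rbp7 and Thrsp and those of Meox2 and of the third listed start of Pparg did not hold these letters. Of the 9 windows, which belong to 6 genes, 5 held it, against 5340 of 32851 promoters of the same length (16.3%). Its direct repeat with 1 base between was in 13 promoters (0.0396%) and in 0 of the 9. A match is a run of letters and not a measured binding site.

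In mm10, the build of the counts, Fabp4 (chr3:10204088-10208576, minus strand) and Fabp5 (chr3:10012548-10016607, plus strand) lie 187480 bases apart. The other 8 genes lie apart from them: Cd36 at chr5:17781690-17888801, Gpihbp1 at chr15:75596628-75599481, Rbp7 at chr4:149449687-149454978, Lpl at chr8:68880491-68907448, Pparg at chr6:115360951-115490399, Aqp7 at chr4:41033074-41048139, Meox2 at chr12:37108540-37179534 and Thrsp at chr7:97412938-97417730. FABP4 and FABP5 are paralogs, and Fabp5 has pseudogene copies in the mouse genome, so how reads shared with a copy were counted bears on its level and was not tested.

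The libraries held 10615358 to 43317677 UMIs (unique molecular identifiers, 1 per captured transcript) over 2283 to 6643 barcodes, and 1713 to 5106 cells per library passed the filters of 200 to 5000 genes and under 10% mitochondrial UMIs, with median depths of 4371 to 6935 UMIs. Cells were clustered without the 10 genes and without 60 further lipid genes, so these genes did not shape the clusters, and clusters were named from marker genes. Capillary ECs fell into Cap-Kdr (183 to 1043 cells per library) and Cap-Rgcc (112 to 821). Artery, Vein, lymphatic collector (Lymph-Col) and lymphatic capillary (Lymph-Cap) ECs, perineurial cells and pericytes with vascular smooth muscle (Pericyte-vSMC) were also named. Of the 12 Cap-Kdr markers, 11 passed in the largest of its 3 clusters and 4 in each of the others. Levels are CPM, the UMIs of a gene per 1000000 UMIs of a population in a library, which gives a value per mouse. Pairs of libraries shared 1 to 8 barcodes. Clustered without alignment of the libraries, only 10 of 270 and 5 of 290 KO Cap-Kdr cells kept that name, and 256 and 282 of them fell in an unnamed cluster of 973 cells, 969 of them from the KO. That cluster held 538 cells named Cap-Kdr with alignment, 208 named Cap-Rgcc and 190 named Vein. Many KO cells of these populations thus stood apart from WT, and their names rest on the alignment.

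Acvrl1, the deleted gene, stood in Cap-Kdr at 186 and 138 CPM in WT telogen, 118 and 124 in anagen and 94.2 and 79.8 in the KO. In Artery it was 314 and 281 in telogen, 269.8 and 293 in anagen and 313 and 254 in the KO, and the groups overlapped. In Cap-Kdr the log2 change in the KO was -1.06 ± 0.21 (SE, adjusted p = 0.0011, edgeR). The transcripts were read at their 3′ end, which may lie outside the deleted exons, so these levels may say nothing about deletion. Xist was high in both KO libraries and in WT telogen S1, and Ddx3y in the other 3. Sex thus differed within WT telogen, while both KO libraries were of the same sex and both anagen libraries of the other. Between the WT stages the mix of sexes, age and time since tamoxifen also differed, and these cannot be told apart from stage.

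Levels in the 4 WT libraries placed 6 of the 10 genes highest in Cap-Kdr. Cd36, the fatty acid translocase, averaged 1742 ± 553 CPM there (SD, n = 4), highest in 4 of 4 libraries, with a range that overlapped that of Cap-Rgcc at 1088 ± 527. Gpihbp1, the LPL carrier, averaged 1521 ± 353 in Cap-Kdr and 973 ± 334 in Cap-Rgcc, which overlapped, and both stood above all other cell types in every WT library. In Artery it averaged 105 ± 43.3. Both genes thus had their highest means in Cap-Kdr and then Cap-Rgcc, a pattern for which they had been chosen. Cd36 was also at 815 ± 279 in Vein, which overlapped Cap-Rgcc, at 631 ± 256 in Pericyte-vSMC and at 454 ± 156 in Artery. Gpihbp1 averaged 189 ± 51.6 in Vein.

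Over whole populations the intracellular carriers were not highest in capillaries. In the largest Cap-Kdr cluster alone, Fabp4 averaged 21421 ± 8550 CPM, above its mean in Vein. Fabp4 was highest in Vein, at 20834 ± 5358 CPM against 16549 ± 6912 in Cap-Kdr, with overlapping ranges, and Fabp5 was at 1416 ± 382 in Vein and 897 ± 369 in Cap-Kdr, also overlapping, with Vein highest in 4 of 4 libraries. Rbp7, a retinoid carrier of the same protein family, was highest in Cap-Kdr at 1959 ± 1135 and overlapped Cap-Rgcc at 982 ± 574. Its spread was wide, with WT anagen S1 at 3616 and the other 3 libraries at 1482, 1680.4 and 1058.

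Aqp7, a water and glycerol channel, and Thrsp, a nuclear protein tied to fatty acid synthesis, separated Cap-Kdr from every other cell type. Aqp7 averaged 106 ± 39.6 CPM in Cap-Kdr, 3.46-fold over Cap-Rgcc at 30.6 ± 14.4, and Thrsp averaged 159 ± 93.1, 6.14-fold over Pericyte-vSMC at 25.8 ± 16.2; neither range overlapped the next. Pparg averaged 60.0 ± 21.8 in Cap-Kdr, which overlapped Pericyte-vSMC at 49.8 ± 10.5 and Cap-Rgcc at 49.6 ± 13.7, and was highest in Cap-Kdr in 2 of 4 libraries. The other transcription factor, Meox2, was highest in perineurial cells at 379 ± 44.9, apart from Vein at 201 ± 17.1 and Cap-Kdr at 151 ± 9.51. Lpl was highest in fibroblasts at 483 ± 156, then in macrophages and myeloid cells at 238 ± 84.3, and averaged 65.0 ± 23.3 in Cap-Kdr. The orders are a description, with no test.

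**Figure D1:**
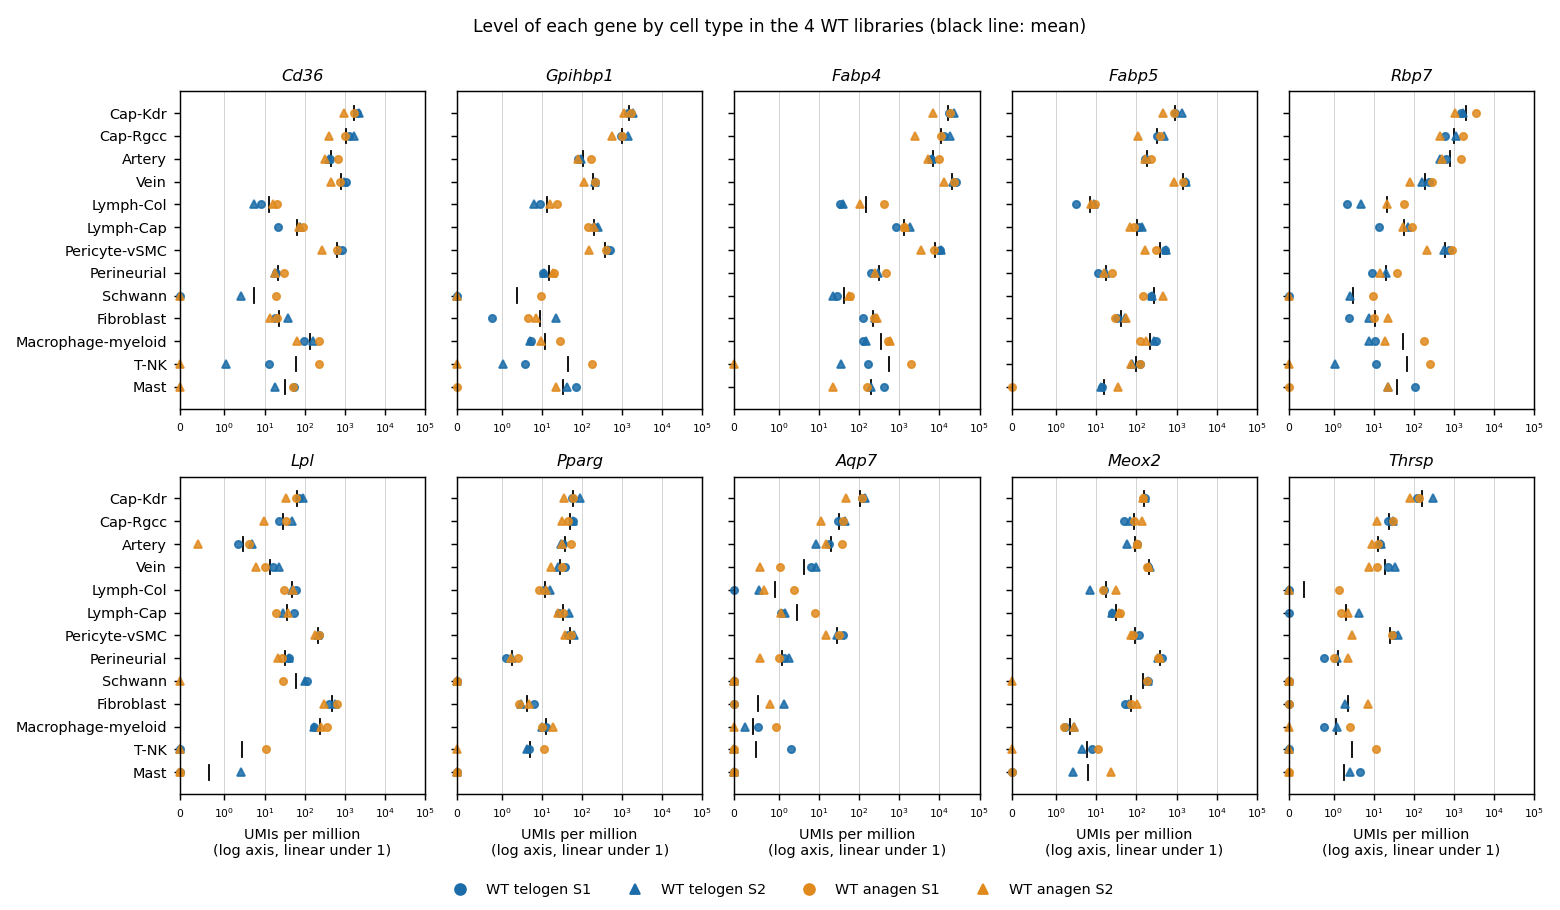
Level of each of the 10 genes in 13 cell types, in CPM on an axis that is linear below 1 and logarithmic above; each point is 1 of 4 WT libraries and the line is their mean. Cd36, Gpihbp1, Rbp7, Aqp7 and Thrsp are highest in Cap-Kdr in all 4 libraries, Fabp5 in Vein, Lpl in fibroblasts and Meox2 in perineurial cells.

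Pericyte-vSMC also held these genes, with Fabp4 at 10164 and 10685 CPM in WT telogen. The endothelial genes Cdh5, at 522 and 396 CPM, and Pecam1, at 519 and 372 CPM, stood beside them, and their part in those levels was not tested.

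Lowering every cell to 1500 UMIs removed the depth gap between cell types. Of the WT Cap-Kdr cells 1969 of 2169 were deep enough (200 left out), with a median before thinning of 4592 UMIs. At that depth 73.7% of Cap-Kdr cells held Fabp4, 72.8% Gpihbp1, 68.7% Cd36 (95% exact binomial interval 66.6 to 70.8%) and 62.2% Rbp7. Before thinning these shares were 80.9%, 84.4%, 83.2% and 73.4%. Fabp5 was in 39.0%, Meox2 in 19.2%, Thrsp in 18.2% and Aqp7 in 15% of the thinned cells, and Lpl and Pparg in 8.28% and 7.16%. In Lymph-Col, which should lack most of these genes, Cd36 was in 1.72%, Gpihbp1 in 1.53%, Rbp7 in 2.14%, Fabp4 in 8.64% and Lpl in 5.82% of 1632 cells, with a median depth of 3966 UMIs. Fabp5 was there in 0.735%, Pparg in 1.72%, Meox2 in 2.27% and Aqp7 in 0.0613%, and Thrsp in 0 cells, which allows a share of up to 0.184%. Each share was higher in Cap-Kdr, and that of Lpl lay closest to the Lymph-Col share. In Vein Fabp4 reached 92.8% and Fabp5 59.4%. Intervals cover counting error only.

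A Cap-Kdr cell held a median of 4 of the 10 genes at that depth, 71.6% of the cells held 3 or more and 5.49% held none. The median was 3 in Vein and Pericyte-vSMC, 2 in Cap-Rgcc and Artery and 0 in Lymph-Col. Fabp4 was at 0 UMIs, before thinning, in 8.74% and 6.91% of WT telogen Cap-Kdr cells, 10.7% and 36.3% in anagen and 17.4% and 25.5% in the KO. Its median per cell was 68 and 76.5 UMIs in telogen, 50 and 5 in anagen and 15.5 and 7 in the KO. These values are not corrected for depth. The median total was 4945 and 3790 UMIs in telogen, 5429 and 3708 in anagen and 3033 and 2668 in the KO. WT anagen S2 thus stood apart from the other WT libraries within the same cell type.

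Within Cap-Kdr levels are described, with no test, in its 3 clusters, of 1945, 556 and 228 cells over all libraries. The largest was led by genes such as Mcf2l and Ccdc85a, the second by Esm1 (endocan, a marker of tip cells) and the smallest by Prnd, Apln and Pgf, which are also known from sprouting endothelium. In the KO, Esm1 had 0 and 2 UMIs in the second cluster. In the smallest, Prnd had 0 UMIs in both KO libraries and Apln 8 and 4. The KO cells placed in these clusters are thus not shown to be the same subsets as in WT. In WT, Lpl averaged 97.7 CPM in the largest cluster, 9.11 in the second and 17.1 in the smallest, and Cd36 averaged 2232, 1174 and 483. Aqp7 was at 148, 47.4 and 19.6. Thrsp was at 183 and 167 in the first and second but at 16.8 in the smallest, whereas Gpihbp1 was at 1699, 1092 and 1593. All 10 genes had their highest mean in the largest cluster, which held 68.8 to 76.6% of Cap-Kdr cells in every library. The smallest cluster rests on as few as 9 cells in a WT library.

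**Figure D2:**
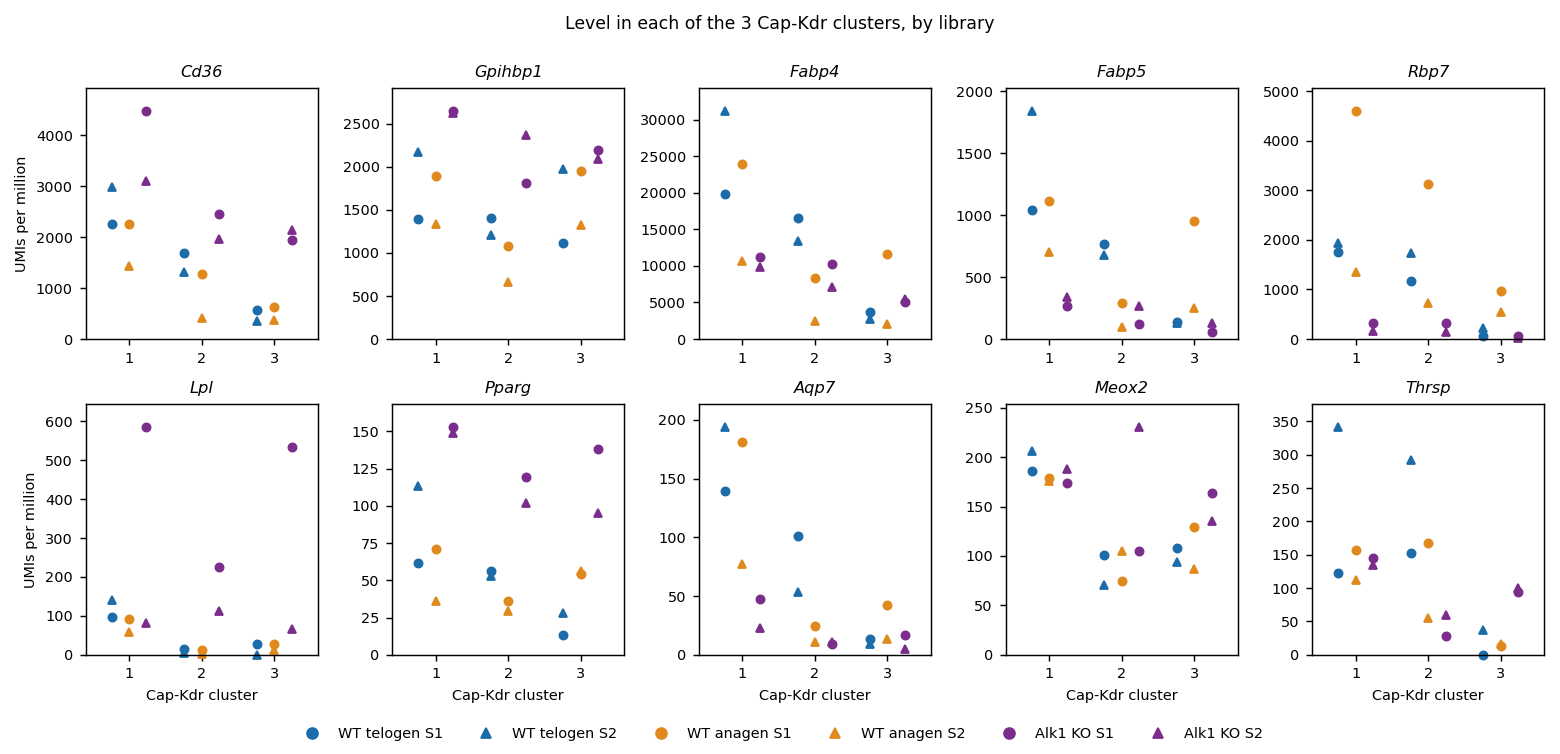
Level of the 10 genes in the 3 clusters of Cap-Kdr cells, in CPM, with a point for each library. The largest cluster has the highest WT mean for each gene, and Gpihbp1 differs least between the largest and the smallest.

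Across the 52 WT sums of 13 cell types, the genes whose log2(CPM + 10) followed the members most closely were named by Pearson's r over 6339 genes, as a description of sums that share libraries. Cd36 and Fabp4 were nearest to each other (r = 0.945), and Aqp7 was nearest to Thrsp (0.918). Gpihbp1 was nearest to Dysf (0.945), Rbp7 to Rflnb (0.929), Thrsp to Nr5a2 (0.923), Meox2 to Clec1a (0.925) and Pparg to Tspan12 (0.897). Fabp5 had no neighbour above Aqp1 (0.793), and Lpl was nearest to Ifi207 (0.792) and lay between -0.04 and 0.14 with the other members.

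Between telogen and anagen, the change in hair cycle that the WT mice addressed, none of the 10 genes passed the test in Cap-Kdr (adjusted p under 0.05 and a fold over 1.3, edgeR), where 0.061% of 9833 genes did. Cd36 stood at 1989 and 2265 CPM in the telogen and 1735 and 979 in the anagen libraries, and Fabp4 at 17856 and 23476 against 17896 and 6967. The anagen libraries were not alike, and S2 was lowest of the WT libraries for Cd36, Gpihbp1, Fabp4, Fabp5, Rbp7, Lpl, Pparg, Aqp7 and Thrsp. The log2 change was -0.57 ± 0.25 (SE) for Cd36 (adjusted p = 0.458), -0.65 ± 0.36 for Fabp4 (0.563) and -0.83 ± 0.36 for Thrsp (0.452). Rbp7 was at 1482 and 1680.4 CPM in telogen and 3616 and 1058 in anagen, with a log2 change of 0.64 ± 0.43 that turned to -0.48 without anagen S1. Meox2 stood at 159 and 159.6 CPM in telogen and 143 and 143 in anagen, a log2 change of -0.08 ± 0.15. DESeq2 also called 0, and 5 genes did not overlap between stages, as was so for 44.0% of all genes. For 4 genes the unadjusted edgeR p was under 0.05. The share of all genes is not given beside that count, so it is not read as a result. The median log2 change of the 10 was -0.55 against 0.00 over all genes. A fit without anagen S1 or without anagen S2 rests on 1 anagen library, and its calls depended on which of them was kept. Those calls were not set beside the share of all genes, so they are not counted here.

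**Figure D3:**
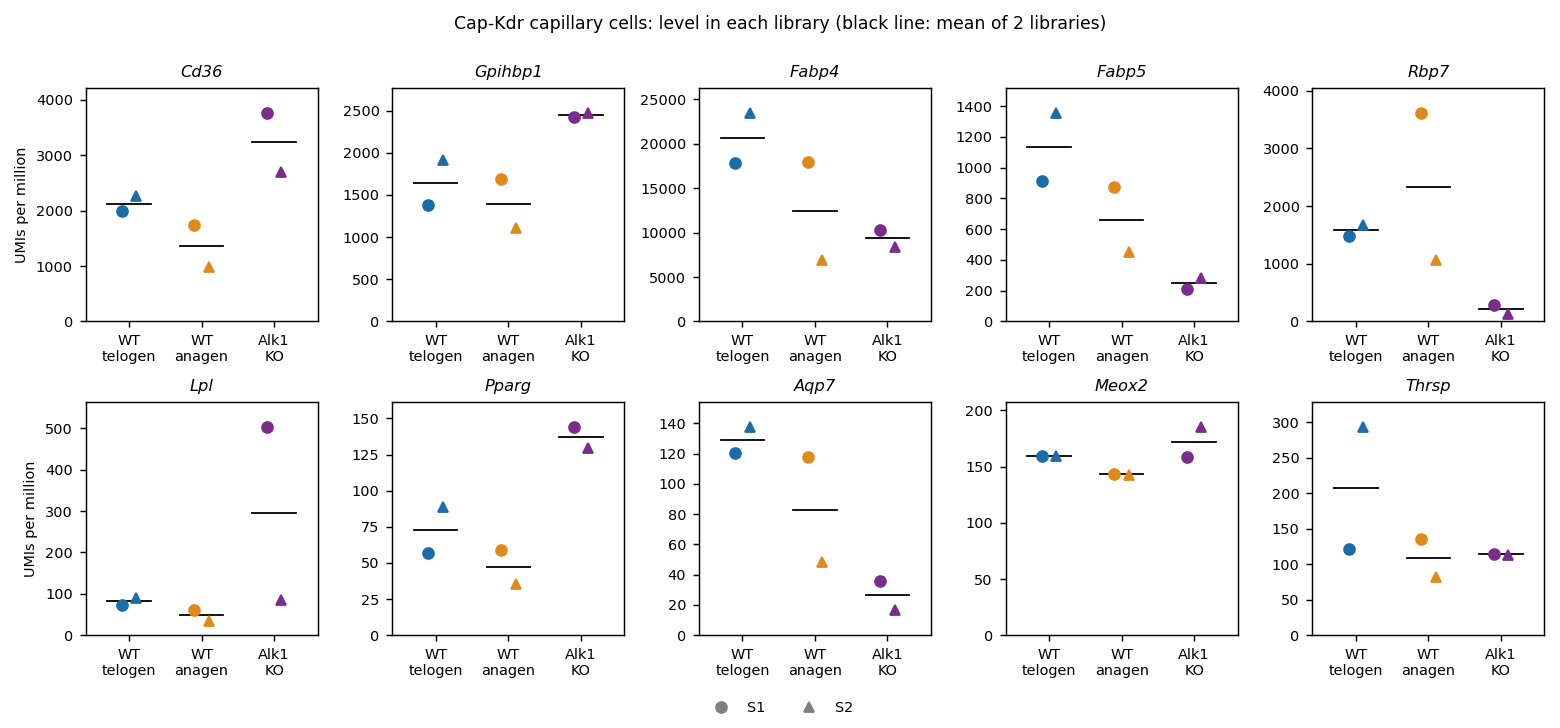
Level of the 10 genes in Cap-Kdr in the 6 libraries, in CPM on axes that start at 0, with the line at the mean of the 2 libraries of a group. Fabp4, Fabp5 and Aqp7 are lower in both KO libraries than in both WT telogen libraries, Pparg is higher in both, and Lpl is high in 1 KO library.

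Over 13 populations 4 of 95 stage tests were called. In Lymph-Col, where 1.6% of all genes were called, Fabp4 rose from 34.2 and 39.5 CPM to 416 and 105 (log2 change 3.01 ± 0.53, adjusted p = 0.022) and Rbp7 from 2.10 and 4.87 to 56.5 and 22.0 (3.70 ± 0.56, adjusted p = 0.011). Fabp4 was not called there with likely doublets removed (1.62, adjusted p = 0.075) or with names from the clustering without alignment (1.94, adjusted p = 0.061), and neither gene was without WT telogen S2 (3.12 and 4.4). These levels are far below those of blood capillaries, and the level of Fabp4 over all kept cells was 3118 and 2384 CPM in telogen and 9551 and 4955 in anagen, and of Rbp7 168 and 113 against 1411 and 342. The part of free RNA from other cells in these rises was not tested. Fabp4 also rose in macrophages and myeloid cells, from 127 and 152 to 538 and 574 CPM (2.25 ± 0.17, adjusted p = 0.043, edgeR, 0.658% of all genes called). The endothelial gene Pecam1 stood in these sums at 18.3 and 17.3 CPM in telogen and 57.6 and 100 in anagen. Cdh5 stood there at 10.0 and 9.81 in telogen and 26.1 and 40.6 in anagen. The part of endothelial RNA in this rise of Fabp4 was not tested. Aqp7 fell in Vein, on 18 UMIs in telogen and 6 in anagen (-3.10 ± 0.59, adjusted p = 0.037, 0.873% of all genes called). The difference of change between populations was called for 4 members in Cap-Kdr against Artery (0.341% of all genes), for Cd36 in blood against lymphatic ECs (0.257%), and for none in Cap-Kdr against Vein (0.00963%) or Cap-Rgcc (0.148%). None of the 4 calls within a population held under every alternative setting tried. Meox2 in Cap-Rgcc stood at 49.6 and 70.1 CPM in telogen and 87.2 and 135 in anagen, without overlap, and was not called (log2 change 1.0 ± 0.27, adjusted p = 0.122, edgeR). It was called higher with DESeq2 (adjusted p = 0.049), with the replicate block (adjusted p = 0.029), with no low-count filter and without anagen S1. In the populations with no call, the share of all genes called was 0.493% in Cap-Rgcc, 0.356% in Artery, 0.44% in Lymph-Cap, 0.878% in perineurial cells, 0.0455% in Pericyte-vSMC, 0.0529% in fibroblasts, 0.0419% in mast cells and 0.0% in Schwann cells and in T and NK cells.

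The KO was compared with WT telogen, the same libraries that the stage comparison used. In Cap-Kdr 7 of 10 genes were called, 5 lower and 2 higher, where 34.4% of 8503 genes were called (16.2% higher, 18.2% lower), and 8 did not overlap, against 70.0% of all genes. Rbp7 was at 1482 and 1680.4 CPM in WT telogen and 292 and 132 in the KO, without overlap, a log2 change of -3.05 ± 0.30 (adjusted p = 4.4e-06). Fabp5 fell from 910.4 and 1356 to 212 and 284 (-2.35 ± 0.23, adjusted p = 4.2e-06), and Fabp4 from 17856 and 23476 to 10297 and 8433 (-1.3 ± 0.20, adjusted p = 0.00017). Both KO libraries lay below both WT telogen libraries for each of these 3 genes. The glycerol channel Aqp7 fell from 121 and 138 to 36.1 and 16.9 (-2.44 ± 0.28, adjusted p = 1.5e-05). At 1500 UMIs per cell, in 331 WT telogen and 414 KO cells (median depths 4390 and 2793 UMIs before thinning), the share with Rbp7 went from 62.5% to 16.4%, that with Fabp5 from 54.7% to 18.6% and that with Aqp7 from 20.2% to 4.83%, and in KO Lymph-Col Rbp7 and Aqp7 were in 0 cells, which allows a share of up to 0.530%, and Fabp5 in 0.177%.

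The uptake receptor and the LPL carrier were not lower in the KO. Cd36 was at 1989 and 2265 CPM in WT telogen and 3762 and 2702 in the KO, higher in both KO libraries, but the log2 change of 0.45 ± 0.21 missed the threshold (adjusted p = 0.106). Gpihbp1 was at 1379 and 1909 in WT telogen and 2421 and 2473 in the KO, again higher in both and not called (0.41 ± 0.20, adjusted p = 0.117). Pparg was called higher, from 56.8 and 88.6 to 144 and 129.6 (0.76 ± 0.21, adjusted p = 0.013), and Thrsp lower, from 122 and 294 to 115 and 114 (-1.01 ± 0.29, adjusted p = 0.014), although WT telogen S1 lay close to the KO libraries. Meox2 stood at 159 and 159.6 in WT telogen and 158 and 185 in the KO, a change within its error (-0.06 ± 0.17, adjusted p = 0.832). Lpl was called higher (1.70 ± 0.52, adjusted p = 0.02) on 72.7 and 90.7 CPM in WT telogen and 504 and 84.7 in the KO, groups that overlap, and without KO S1 the log2 change was -0.13.

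Fabp4, Fabp5, Rbp7 and Aqp7 kept their calls in Cap-Kdr with each library left out, with DESeq2, with all 6 libraries in one fit and in the largest Cap-Kdr cluster alone (chosen after seeing the data). Lpl, Pparg and Thrsp lost theirs in each of the last 3, Pparg also without KO S1 or WT telogen S1, and Thrsp without WT telogen S2. With names from the clustering without alignment, which left 11 and 7 KO cells named Cap-Kdr, only Rbp7 was called, at -1.35. The sum of 10 adipocyte markers in Cap-Kdr was 23.9 and 44.8 CPM in WT telogen, 10.6 and 6.02 in anagen and 94.2 and 30.9 in the KO, with Lep at 0 in all 6 and Adipoq between 0 and 5 UMIs, and it was highest in KO S1, the library with the highest Lpl. Erythroid markers summed to 13746 and 995 CPM in WT telogen and 1409 and 8534 in the KO. Macrophage markers summed to 61.8 and 98.4 CPM in WT telogen and 4.01 and 8.97 in the KO. The part of these in the changes was not tested.

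Cap-Rgcc gave 4 calls, all lower, where 17.5% of genes were called and 9.71% were lower. Rbp7 fell from 603 and 1138 to 226 and 54.4 CPM (-2.59 ± 0.48, adjusted p = 0.0038), Fabp5 from 331 and 489 to 114 and 72.0 (-2.12 ± 0.28, adjusted p = 0.00055) and Fabp4 from 13146 and 18317 to 8295 and 4781 (-1.26 ± 0.28, adjusted p = 0.0089). Aqp7 was at 29.5 and 43.6 in WT telogen and 11.8 and 1.60 in the KO (-2.31 ± 0.58, adjusted p = 0.017). With DESeq2 only Fabp5 of these 4 was called. Rbp7 kept its call with each library left out, as did Fabp5, whereas Fabp4 (-0.99) and Aqp7 (-2.01) lost theirs without WT telogen S2 and with all 6 libraries in one fit. The difference of change between Cap-Kdr and Cap-Rgcc was called for none of the 10 genes, against 3.95% of all genes.

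In Artery 5 of 9 genes tested were called (18.8% of all genes), and 4 of these were higher. Gpihbp1, low in WT arteries, rose from 77.8 and 94.0 to 416 and 463 CPM (2.37 ± 0.17, adjusted p = 8.6e-07) and Cd36 from 420.4 and 395 to 1263 and 1102 (1.55 ± 0.15, adjusted p = 1.1e-05). Pparg rose from 33.1 and 30.5 to 68.0 and 64.7 (1.07 ± 0.22, adjusted p = 0.0042), and Fabp4 from 6137 and 6384 to 7936 and 9072 (0.45 ± 0.12, adjusted p = 0.02), the opposite direction to capillaries. The Fabp4 call in Artery was lost without WT telogen S1 (0.42) or S2 (0.46), with the replicate block (adjusted p = 0.066) and with all 6 libraries in one fit (adjusted p = 0.19). Rbp7 fell in Artery too, from 649 and 457 to 324 and 89.5 (-1.41 ± 0.38, adjusted p = 0.018, edgeR), and was not called with DESeq2 (adjusted p = 0.442). Adipocyte markers in Artery summed to 7.20 and 8.24 CPM in WT telogen and 33.5 and 9.59 in the KO, and their part was not tested. The difference of change between Cap-Kdr and Artery was called for 6 of the members, against 9.75% of all genes, and was largest for Aqp7 at -2.72 ± 0.48 (adjusted p = 0.00031) and Fabp5 at -1.95 ± 0.22 (6.9e-07). For Fabp4 it was -1.69 ± 0.11 (7.4e-11). Without KO S1 the Aqp7 difference did not pass (-2.04), and in Artery itself Aqp7 was counted 24 and 10 times in WT telogen and 31 and 8 times in the KO.

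In Vein 6 of 9 genes were called (22.2% of all genes). Gpihbp1 rose from 209 and 216 to 773 and 1462 CPM (2.38 ± 0.24, adjusted p = 7.8e-06) and Cd36 from 1101 and 944 to 1732 and 1583 (0.69 ± 0.15, adjusted p = 0.0047). Fabp5, highest in Vein among WT cell types, fell from 1624 and 1737 to 274 and 373 (-2.39 ± 0.18, adjusted p = 4e-07) and Fabp4 from 25219.5 and 22386 to 13219 and 15063 (-0.76 ± 0.11, adjusted p = 0.00017). Lpl and Meox2 were also lower, at -1.64 ± 0.46 and -0.60 ± 0.18, and both were not called with DESeq2. Lpl lost its call without WT telogen S1 (-1.82) or S2 (-1.43), and Meox2 without WT telogen S1 (-0.65), WT telogen S2 (-0.54) or KO S1 (-0.46). Cd36 lost its call without WT telogen S2 (0.56), and with names from the clustering without alignment its change was 0.08. The change of Gpihbp1 was -1.89 ± 0.24 in Cap-Kdr relative to Vein (adjusted p = 5e-05, edgeR, 3.98% of all genes called). By these names the change was larger in veins than in the capillaries, where the WT level of Gpihbp1 was highest. The split of KO cells between Vein and Cap-Kdr rests on the alignment.

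Both lymphatic populations had higher Gpihbp1 in the KO, from 204 and 253 to 683 and 862 CPM in Lymph-Cap (1.70 ± 0.17, adjusted p = 3.5e-05) and from 8.94 and 6.50 to 147 and 56.9 in Lymph-Col (3.63 ± 0.45, adjusted p = 0.00027). Lymph-Cap had 4 of 8 genes called (15.4% of all genes), with Lpl higher (0.98 ± 0.25) and Fabp4 and Fabp5 lower (-1.41 ± 0.32 and -1.87 ± 0.18). Lymph-Col had 3 of 6 (17.3%), with Cd36 (2.69 ± 0.32) and Pparg (1.04 ± 0.30) also higher. Pparg in Lymph-Col was not called without WT telogen S1 (0.80) or S2 (1.31) or with DESeq2, nor Lpl in Lymph-Cap without WT telogen S2 (0.63) or with DESeq2, nor Fabp4 in Lymph-Cap with DESeq2. The Gpihbp1 level over all kept cells went from 126 and 108 to 722 and 762 CPM and that of Cd36 from 265 and 244 to 981 and 658, and the part of free RNA in the low Lymph-Col levels was not tested. The difference of change between blood and lymphatic ECs was called for 4 members, Cd36, Gpihbp1, Fabp5 and Rbp7, each more negative in blood ECs, against 20.1% of all genes. Across the 6 EC populations Gpihbp1 was called higher in 4, Fabp5 lower in 4 and Rbp7 lower in 3.

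**Figure D4:**
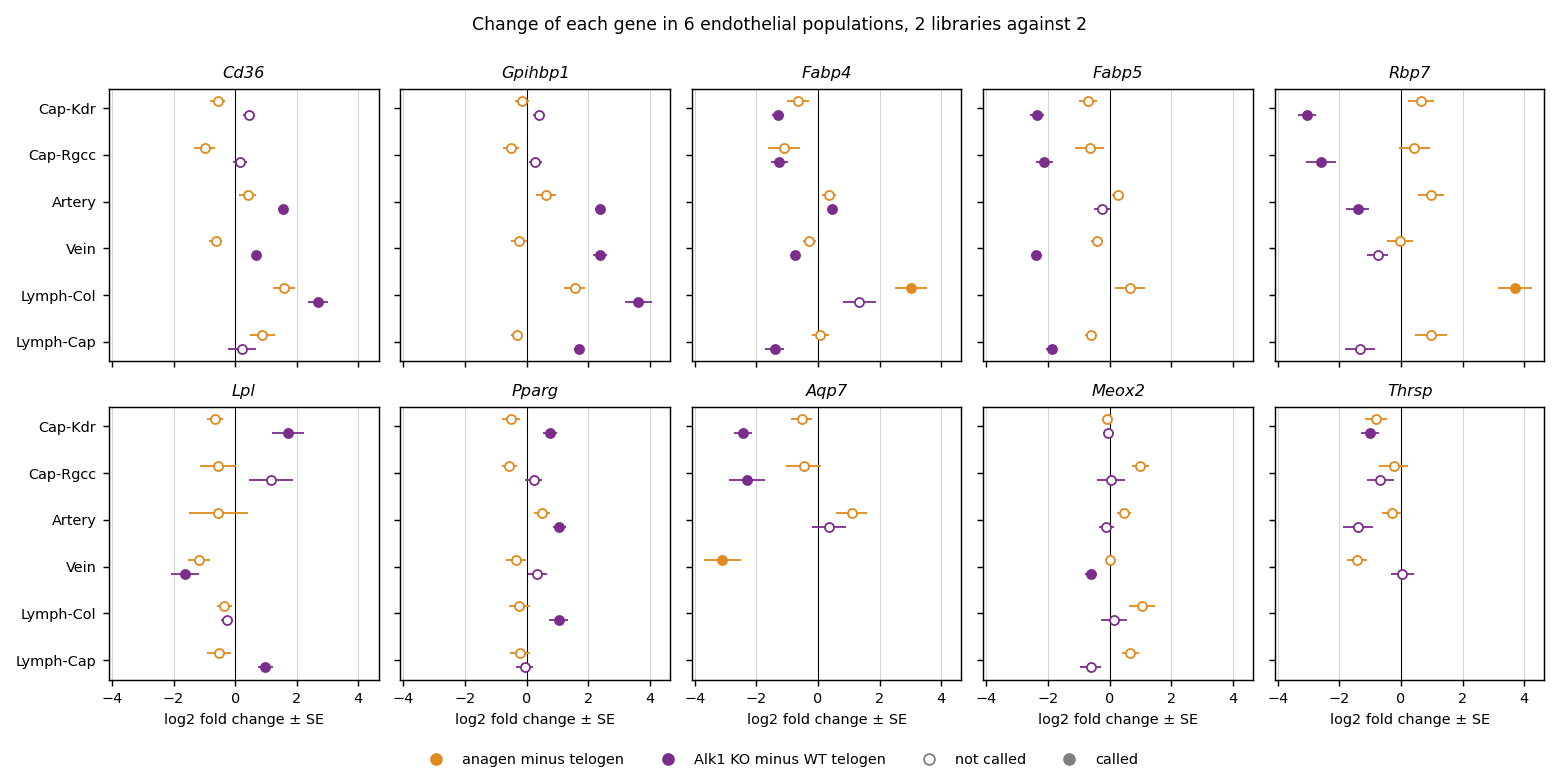
Log2 change of each gene with its standard error in 6 endothelial populations, for anagen minus telogen and Alk1 KO minus WT telogen; filled points are called (adjusted p under 0.05 and a fold over 1.3, edgeR). In the KO Fabp5 is lower in Cap-Kdr, Cap-Rgcc, Vein and Lymph-Cap and Gpihbp1 higher in Artery, Vein, Lymph-Col and Lymph-Cap, whereas Fabp4 is lower in both capillary populations and higher in Artery.

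Over all named blood ECs as one population, an alternative chosen after seeing the data, 7 of 10 genes were called in the KO (33.2% of all genes) and 0 between stages (0.0%). Gpihbp1 (0.91 ± 0.16), Pparg (0.71 ± 0.14) and Cd36 (0.66 ± 0.16) were higher, and Rbp7 (-2.16 ± 0.38), Fabp5 (-2.11 ± 0.18), Aqp7 (-1.70 ± 0.32) and Fabp4 (-0.77 ± 0.12) lower. These sums mix the populations in the shares each library holds.

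Outside ECs, 5 of 10 genes were lower in KO Pericyte-vSMC (6.29% of all genes called, 3.49% lower), among them Fabp4 (-1.34 ± 0.28) and Rbp7 (-3.73 ± 0.55), and Thrsp went from 97 UMIs in WT telogen to 0 in the KO. Of these 5 only Rbp7 kept its call with each library left out, and Fabp4 lost its call without WT telogen S1 or S2. Cdh5 there fell from 522 and 396 to 15.6 and 172 CPM, and its part was not tested. In perineurial cells Lpl rose from 40.3 and 41.5 to 303 and 97.0 (2.33 ± 0.34, 21.5% of all genes called), beside adipocyte markers at 1.3 and 2.23 CPM in WT telogen and 710.1 and 803 in the KO, whose part was not tested. Without KO S1 Lpl was not called there (1.01), and with names from the clustering without alignment its change was -1.01. Thrsp was also called higher in perineurial cells, on 9 UMIs in WT telogen and 7 in the KO (3.61 ± 0.78, adjusted p = 0.0054, edgeR), and had no test with a library left out. In fibroblasts Pparg was at 6.32 and 2.94 in WT telogen and 15.1 and 113 in the KO (3.59 ± 0.72, 37.4% of all genes called) and Fabp4 at 124 and 245 and, in the KO, 402 and 1164, highest in KO S2, the library whose fibroblast sum held adipocyte markers at 6777 CPM against 42.3 in KO S1. The part of these markers in the fibroblast values was not tested. Without KO S2 neither Pparg (1.42) nor Fabp4 (0.82) was called in fibroblasts. Meox2 fell in fibroblasts (-2.59 ± 0.61), and in Schwann cells from 186 UMIs to 0, on 8 and 12 KO cells (9.14% of all genes called). Lpl fell in macrophages and myeloid cells (-1.18 ± 0.18, 9.06% called), but not without WT telogen S1 or S2 (-1.14 each). In T and NK cells 0 of 2 were called (0.034%). Over 12 populations 41 of 91 tests were called, 17 higher and 24 lower. The share of all genes called ran from 0.034% in T and NK cells to 37.4% in fibroblasts.

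The other 60 lipid genes were taken as 8 lists. In anagen against telogen none of the 46 tested in Cap-Kdr or the 45 in Cap-Rgcc was called, and in the other EC populations Apoe was higher in Vein (0.67 ± 0.12, adjusted p = 0.03) and Scarb1 in Lymph-Col (2.29 ± 0.41, adjusted p = 0.023). In the KO 18 of 42 were called in Cap-Kdr, 8 higher and 10 lower, and 12 of 29 in Cap-Rgcc, 3 higher and 9 lower, where 34.4% and 17.5% of all genes were called. Of the uptake genes 3 were tested in Cap-Kdr and all were lower, the fatty acid transport protein and acyl-CoA synthetase Slc27a3 (-2.66 ± 0.42), the lipoprotein receptor Scarb1 (-0.64 ± 0.18) and Got2 (-1.01 ± 0.30). Of 6 genes of LPL control and lipolysis 3 were higher and 1 lower. Pnpla2, the adipose triglyceride lipase, stood at 67.7 and 66.7 CPM in WT telogen and 590.2 and 469.5 in the KO (2.82 ± 0.21, adjusted p = 4.5e-07) and was higher in all 6 EC populations. Angptl4, an inhibitor of LPL, was higher in Cap-Kdr (1.06 ± 0.28) and lower in Cap-Rgcc (-1.27 ± 0.35), Lipa, the lysosomal lipase, was higher (0.62 ± 0.18) and the monoglyceride lipase Mgll lower (-1.26 ± 0.19).

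Of the 5 genes of fatty acid binding and activation 1 was higher and 2 lower. Dbi, the acyl-CoA-binding protein, stood at 249 and 234 CPM in WT telogen and 81.2 and 90.7 in the KO (-1.65 ± 0.18, adjusted p = 9.3e-06) and was lower in all 6 EC populations, while the acyl-CoA synthetases moved apart, Acsl4 higher (1.07 ± 0.38) and Acsl5 lower (-0.89 ± 0.26). None of the 6 genes of triglyceride synthesis and droplets was called in Cap-Kdr. Of 10 oxidation genes Pdk4, a brake on glucose oxidation, was higher (1.27 ± 0.46) and Cpt1a, which admits fatty acids to mitochondria, and Hadhb were lower (-0.94 ± 0.35 and -0.57 ± 0.19). Of 8 PPAR and MEOX2 partners Ppard was higher (1.23 ± 0.43) and Meox1 and Tcf15 lower (-1.86 ± 0.27 and -0.68 ± 0.22). The cholesterol exporter Abca1 (1.48 ± 0.20) and the glycerol channel family member Aqp11 (1.35 ± 0.43) were higher. In Cap-Rgcc the 3 higher genes were Pnpla2 (1.04 ± 0.20), Abca1 (0.67 ± 0.21) and the sterol exporter Abcg1 (1.29 ± 0.24). The lower ones besides Angptl4 were Slc27a3 (-2.26 ± 0.49), Scarb1 (-0.86 ± 0.20), Mgll (-1.18 ± 0.22), Acsl5 (-1.84 ± 0.40), Dbi (-1.22 ± 0.22), Meox1 (-1.84 ± 0.37), the droplet protein Hilpda (-1.69 ± 0.32) and the oxidation enzyme Acadvl (-1.14 ± 0.36). In Artery 10 of 40, in Vein 6 of 39, in Lymph-Col 13 of 44 and in Lymph-Cap 13 of 46 of these genes were called, where 18.8%, 22.2%, 17.3% and 15.4% of all genes were.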

How the data were processed

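Back-skin tdTomato+ cells, cleared of dead cells, were profiled with 3′ v3 chemistry in 6 libraries of 1 mouse each, 2 per group. Per barcode, the files hold unnormalized UMI counts for 32285 genes, deposited as Cell Ranger 6.0.1 gave them for the mm10 genome (versions per the submitters' notes, which also name Seurat 4.0). Every deposited barcode held at least 500 UMIs. The authors' integration is not part of these counts. Total UMIs per library ranged from 10615358 to 43317677.

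Cells were kept with 200 to 5000 genes and less than 10% of UMIs from mitochondrial genes. Their counts were scaled to a common total per cell, and 3000 variable genes, without the 70 genes described, gave 30 principal components, which were aligned between libraries by a Harmony procedure (theta 2, sigma 0.1). Leiden clusters (20 neighbours, resolution 0.6), formed over all cells and then over ECs, were named where 3 or more fixed markers were at least 2-fold higher in 25% of cells. Likely doublets stayed in, and removing the 5% of cells with the highest simulated-doublet score was an alternative. Summed counts per library and population (5 or more cells) were tested with edgeR 4.0.16 quasi-likelihood (filterByExpr, TMM, Benjamini-Hochberg over all genes of a population), and a gene was called when its adjusted p was under 0.05 and it differed by more than 1.3-fold. The test was checked on simulated data with 200 changed genes. For the stages it recovered 46% of 2-fold and 91% of 4-fold changes in Cap-Kdr, with 28 false calls. In Cap-Rgcc it recovered 28% and 76%, with 11 false calls. For the KO the shares were 39% and 89% in Cap-Kdr, with 12 false calls, and 29% and 89% in Cap-Rgcc, with 10. A gene without a call may thus have changed 2-fold, and some genes with a call may not have changed. Alternatives were DESeq2 1.42.0, no low-count filter, a replicate block, all libraries in one fit, other cell filters and clusterings, and each library left out. Python 3.11.15, R 4.3.3, leidenalg 0.10.2 and numpy 2.4.6 were used.

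All members are named, and of the 60 further genes those called in Cap-Kdr or Cap-Rgcc, or in 3 or more EC populations, are named, except a gene that is not reported here. Members and lists were chosen with earlier results of these data known. Both comparisons share the WT telogen libraries. Each library is a separate mouse, so the spread between libraries is between animals. Levels are not compared between genes.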

Additional observations from a re-analysis of the deposited data

Results flagged for a closer look

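The response to a condition differed between cell types for several genes, by a test of the difference of the log2 changes itself (edgeR, adjusted over all genes). Between telogen and anagen, the change in Cap-Kdr minus that in Artery was -0.94 ± 0.17 (SE) for Cd36, -1.09 ± 0.16 for Fabp4, -0.99 ± 0.18 for Fabp5 and -1.67 ± 0.31 for Aqp7, with adjusted p of 0.0047, 0.00036, 0.0065 and 0.0065, where 0.341% of all genes were called. In CPM, Cd36 in Artery went from 420.4 and 395 in telogen to 679 and 322 in anagen and Fabp4 from 6137 and 6384 to 9548 and 5229, so the anagen libraries lay on both sides of telogen. None of these 4 differences passed without WT telogen S2, at -0.80, -0.91, -0.76 and -1.16. For Cd36 the change in blood ECs minus that in lymphatic ECs was -1.66 ± 0.31 (adjusted p = 0.049, 0.257% of all genes called), and it did not pass without WT telogen S1 (-1.27) or WT anagen S2 (-1.27). No member was called between Cap-Kdr and Vein (0.00963% of all genes called) or Cap-Rgcc (0.148%).

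In the KO the change in Cap-Kdr minus that in Artery was -2.72 ± 0.48 for Aqp7, -1.95 ± 0.22 for Fabp5, -1.88 ± 0.15 for Gpihbp1, -1.69 ± 0.11 for Fabp4, -1.51 ± 0.21 for Rbp7 and -1.06 ± 0.14 for Cd36, where 9.75% of all genes were called. The Aqp7 difference did not pass without KO S1 (-2.04). Against Vein it was -1.89 ± 0.24 for Gpihbp1, -2.24 ± 0.25 for Rbp7 and 3.42 ± 0.46 for Lpl (3.98%). The split of KO cells between Vein and Cap-Kdr rests on the alignment of the libraries. Blood ECs minus lymphatic ECs gave -1.85 ± 0.16 for Gpihbp1, -1.88 ± 0.49 for Rbp7, -1.19 ± 0.19 for Fabp5 and -0.76 ± 0.25 for Cd36 (20.1%). The Rbp7 difference between blood and lymphatic ECs did not pass without WT telogen S1 (-1.18) or KO S2 (-1.07), nor that of Cd36 without WT telogen S1 (-0.35) or KO S1 (-0.48). Lpl was at 504 and 84.7 CPM in the KO libraries of Cap-Kdr, and its difference from Vein passed without KO S1 too, at 2.04.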

How the results depend on the processing

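With 2 libraries per group, the stage counts turned on single libraries, while the KO calls of Fabp4, Fabp5, Rbp7 and Aqp7 in Cap-Kdr held with each library left out. The stage count of 4 calls over all populations became 36 with no low-count filter, 12 with the replicate block, 1 with all 6 libraries in one fit and 2 with cells under 5% mitochondrial UMIs, and lay between 4 and 37 with each library left out in turn, highest without WT anagen S1. In Cap-Kdr the stage count of 0 became 4 with no low-count filter and lay between 0 and 8 with a library left out. A group left with 1 library is assumed there to vary like the other. The KO count of 41 became 26 with DESeq2 and lay between 29 and 56 with a library left out. The KO count of 7 in Cap-Kdr became 4 with DESeq2, 4 with all 6 libraries in one fit, 1 without correction between libraries and 4 in the largest Cap-Kdr cluster alone, and lay between 5 and 8 with a library left out. The share of all genes called under each of these settings is not given beside these counts. The shifts are thus not read as a result about these 10 genes, and their cause was not tested. Of the 41 KO calls 14 held under every setting tried that tested them, and 21 of 40 with each library left out.

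With a library left out, the log2 change of Rbp7 between stages ranged from -0.48 (without WT anagen S1) to 1.28 in Cap-Kdr and from -0.79 to 1.11 in Cap-Rgcc, that of Lpl in the KO from -0.13 (without KO S1) to 2.49 in Cap-Kdr and from -1.68 to 2.07 in Cap-Rgcc, and that of Meox2 in KO Cap-Rgcc from -1.16 (without KO S2) to 0.72. The direction also turned for Lpl in KO perineurial cells (-1.01) without correction between libraries. The count of differences between cell types moved in both comparisons when each library was left out (chosen after seeing the data). Those counts have no share of all genes beside them and are not given here. The 6 members highest in a capillary population stayed 6 under the other cell filters and clusterings and with each WT library left out. They were 7 with the largest Cap-Kdr cluster alone, where Fabp4 was added. The S numbers of separate mice share only a number (correlations of the deviations from -0.153 to 0.161), and a replicate block left the Cap-Kdr counts at 0 and 7 and moved the KO total to 44. KO libraries hold 10615358 and 11239445 UMIs, against 29851591 or more in each WT library, which limits the rare genes Lpl, Aqp7 and Thrsp.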

Other observations

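A cluster of 556 cells that passed no marker set was led by the cell division genes Cenpf, Prc1, Ube2c, Birc5 and Cdk1 and expressed the endothelial gene Pecam1. It held 60 and 66 cells in WT telogen, 176 and 137 in anagen and 59 and 58 in the KO. Mki67, a proliferation marker, stood there at 514 and 412 CPM in WT telogen, 404 and 321 in anagen and 0 in both KO libraries, whose cells there held 114061 and 78133 UMIs. Fabp5 was at 1022 and 1063 CPM in telogen, 1481 and 405 in anagen and 175 and 243 in the KO. Rbp7 was at 1101 and 571 in telogen, 2632 and 974 in anagen and 140.3 and 0 in the KO. Fabp4 stood at 9658 and 8583 in telogen, 9299 and 3489 in anagen and 9942 and 7462 in the KO. Cd36 was at 991 and 896 in the KO, 482 and 429 in telogen and 745 and 333 in anagen, and Gpihbp1 stood at 414 and 402 in telogen, 782 and 514 in anagen and 640.0 and 883 in the KO. At the finer resolution of 1.2, a cluster of 222 cells led by the same genes held 29 and 36 cells in telogen, 102 and 54 in anagen and 0 and 1 in the KO, so the WT and KO cells given here are not comparable. These values were not tested.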
